A study of Mus musculus with 24 samples.

Results

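The core circadian clock of the liver is described here by 10 genes, taken by name from the array's own annotation. They are the activators Arntl (BMAL1), Clock and Npas2, and the 7 repressors Per1, Per2, Per3, Cry1, Cry2, Nr1d1 and Nr1d2. These are 10 of 37074 gene names on the array, read by 24 probes of 60 bases. Each gene was represented by its brightest probe over all arrays, and 9 of the 10 passed the filter on low signals, as did 21372 genes in all.

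Liver RNA of male mice 12 weeks old was hybridised to 24 arrays, 1 per mouse, with 6 mice in each of 4 groups. LWT_Fed and LWT_Fasted were littermates without Cre that carried floxed p110α alleles. LKO_Fed and LKO_Fasted were albumin-Cre+/- p110α flox/flox mice, so all mice carry the floxed alleles. In LKO mice Cre, under control of the albumin promoter, cuts part of Pik3ca out of hepatocyte DNA. Whether all other liver cells keep the gene whole was not examined here. Pik3ca encodes p110α, a catalytic subunit of the phosphoinositide 3-kinase that insulin activates. Fed mice ate freely, fasted mice had no food for 24 h from ZT16, and every liver was taken at ZT16, in the dark phase (ZT0 is lights on). Only this hour was sampled, so a shift in the phase of a rhythm and a change in its level cannot be told apart.

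In the clock loop, BMAL1 pairs with CLOCK or NPAS2 and binds E-boxes in DNA to switch on the Per, Cry and Nr1d genes. PER and CRY proteins return to the nucleus and inhibit this pair, while the REV-ERB proteins made from Nr1d1 and Nr1d2 repress Arntl, Clock and Npas2 through ROR elements. In the liver the loop runs in most hepatocytes, and the timing of meals is known to set its phase.

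Promoter sequences of these genes are shown first, because each repressor is also known as a target of the activators. RefSeq windows on GRCm38.p6, from 250 bases before to 50 bases after a start site, were matched by symbol for 9 of the 10 genes, with 13 windows in all. Per2 had no window and was not searched. They were searched on both strands for CACGTG (E-box), CACGTT (a variant E-box), TTANGTAA (D-box), TAGGTCA and TGGGTCA (2 forms of the ROR element) and TGACGTCA (CRE). No letters are shared between the places found. Of 32851 windows of all genes, 7.15% held CACGTG, 4.68% CACGTT, 2.32% TTANGTAA, 2.61% TAGGTCA, 3.98% TGGGTCA and 1.79% TGACGTCA. Windows of 6 members held at least 1 of these motifs, and those of Clock, Npas2 and Nr1d2 held none. The share of all windows with at least 1 of the motifs was not computed. Genes with several windows had more chances of a match, so the count of 6 is a description only. The stretches below read 5′ to 3′ along each gene's own strand, with the motif in capitals, and a motif found on the opposite strand appears as its reverse complement, AACGTG for CACGTT.
Per1, chr11:69098763-69098808, plus strand: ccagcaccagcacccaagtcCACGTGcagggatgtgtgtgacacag
Cry1, chr10:85185089-85185153, minus strand: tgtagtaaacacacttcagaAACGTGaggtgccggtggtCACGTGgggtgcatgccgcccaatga
Cry2, chr2:92434210-92434255, minus strand: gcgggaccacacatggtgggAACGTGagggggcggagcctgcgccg
Nr1d1, chr11:98775380-98775425, minus strand: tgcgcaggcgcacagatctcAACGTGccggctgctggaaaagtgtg
Per3, chr4:151044796-151044890, minus strand: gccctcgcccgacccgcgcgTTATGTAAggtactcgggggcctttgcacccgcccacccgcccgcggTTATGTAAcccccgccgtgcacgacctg
Arntl, chr7:113207529-113207558, plus strand: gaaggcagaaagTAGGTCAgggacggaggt

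Per1, Cry1, Cry2 and Nr1d1 thus held an E-box or its variant, Per3 held a pair of D-boxes, the element bound by DBP, TEF and HLF, and the activator Arntl held a ROR element just after its start site. A match of letters is a description and does not show binding.

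Values are quantile-normalized log2 signals, with means given ± SD over 6 mice. Fold changes and their standard errors come from a limma model of all 24 arrays with a slide term and array weights, and they need not equal the gap between plain means. A change was called at an adjusted p of at most 0.05, by the method of Benjamini and Hochberg over 32197 probes. Nothing in the labels says that the mice of a group came from separate litters or cages, and the p-values measure the spread between these mice. Probes differ in brightness, so levels are compared between groups for 1 gene and never between genes.

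On each array 54.7% to 63.0% of spots gave a signal well above background. The Pik3ca probe was not lower in the arrays labelled LKO, with 11.91 ± 0.21 in LWT_Fed, 12.28 ± 0.14 in LWT_Fasted, 12.54 ± 0.26 in LKO_Fed and 12.26 ± 0.19 in LKO_Fasted. Whether that probe lies in the deleted part was not determined, so it does not check the labels. On the second principal component, LKO_Fasted replicates 1 and 2 stood at 35.1 and 31.3, while the other 4 arrays of that group lay between 1.40 and 2.92. Fitted values printed below for named genes are also given without both of these arrays where that changed a call, a sign or, by over 1.5 times, a size. Of 6 hepatocyte markers listed, 5 were on the array by name and all 5 were well above background on every array. Their summed log2 signal was 19.94 to 20.01 in LWT_Fed, 19.95 to 20.04 in LWT_Fasted, 19.97 to 19.99 in LKO_Fed and 19.87 to 19.92 in LKO_Fasted, which lay below the other groups.

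**Figure D1:**
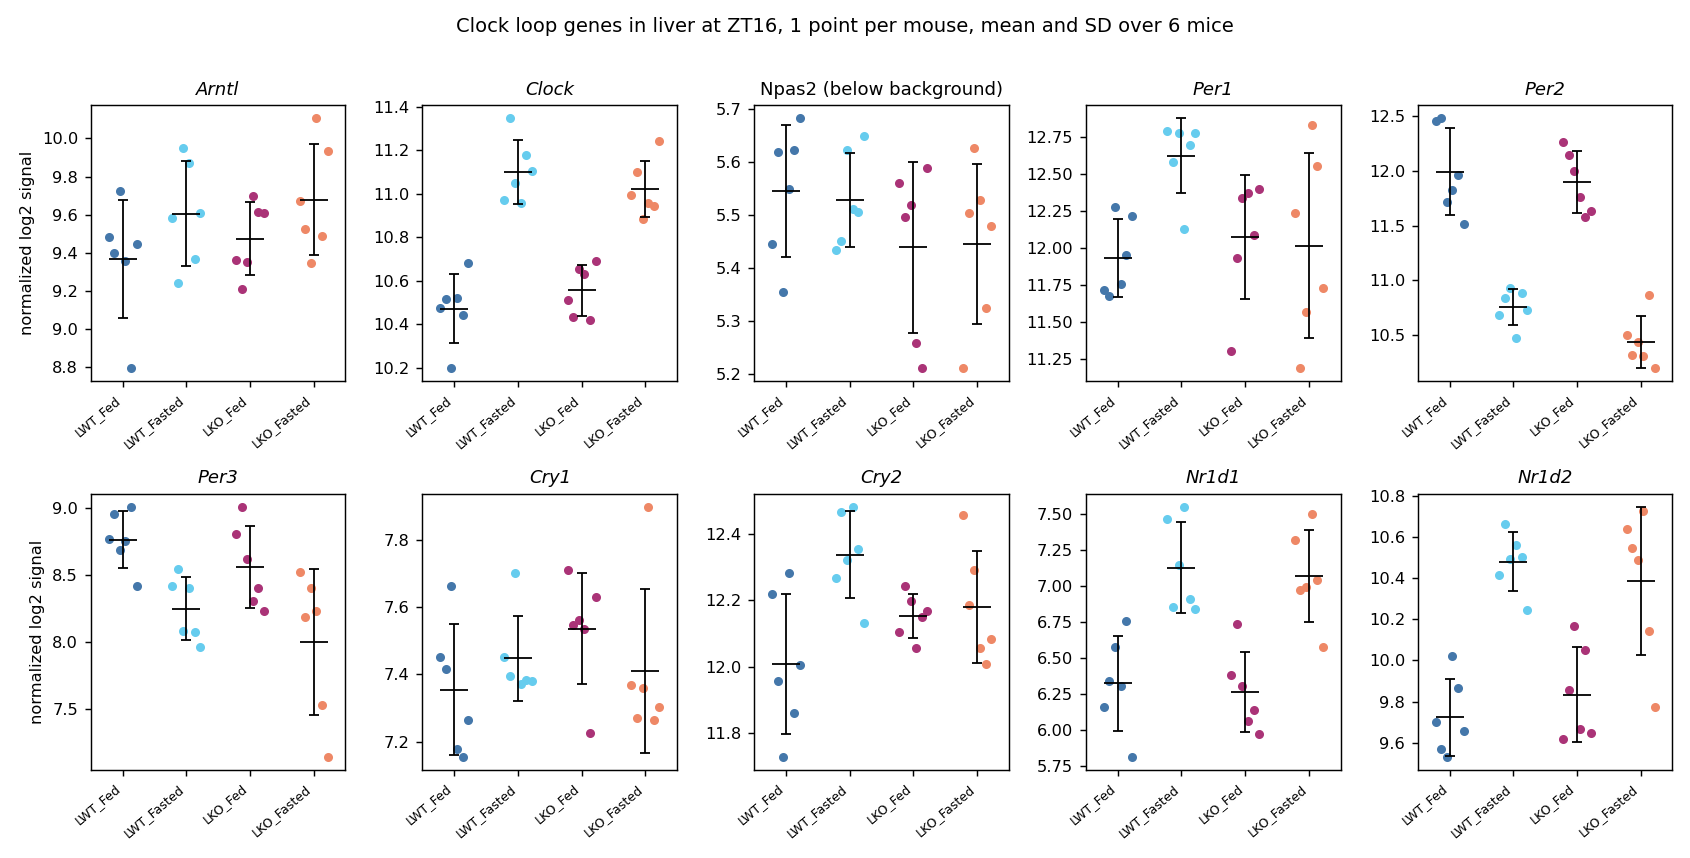
Normalized log2 signal of the 10 clock loop genes (y axes, each on its own scale) in the 4 groups (x axes), with 1 point per mouse and the mean and SD over 6 mice as bars. Per2 and Clock showed fed and fasted mice apart in both genotypes, Per1 had an SD of 0.62 in LKO_Fasted, and Npas2 was not well above background on any array.

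Fasting changed both activators and repressors of the loop in LWT livers. Of the 9 members tested, 8 passed, against 41.6% of all 21372 genes, and 6 of them rose (Arntl, Clock, Per1, Cry2, Nr1d1 and Nr1d2) while Per2 and Per3 fell. Both activators tested rose, as did both REV-ERB genes, and of the 5 PER and CRY genes 2 rose, 2 fell and Cry1 did not pass. Among these the Arntl call was close to the threshold (adjusted p = 0.0440 in limma) and was lost under several settings. The Cry2 rise was seen with 1 probe of 3, as given below. In LKO livers 5 of 9 passed, against 41.5% of all genes, with Clock, Nr1d1 and Nr1d2 higher and Per2 and Per3 lower. Without LKO_Fasted replicates 1 and 2, 4 of 9 passed, against 8594 of 21372 genes. The median log2 fold change over the members was 0.35 in LWT and 0.04 in LKO, beside -0.01 and -0.02 over all genes, and the median size of change was 0.59 and 0.46, beside 0.17 and 0.19. With a change above 1.5-fold also asked for, 5 members passed in LWT (10% of all genes) and 3 in LKO (12.8%). The 6 fasted mice lay wholly apart from the 6 fed mice for 4 members in LWT (Clock, Per2, Nr1d1 and Nr1d2, against 21.6% of all genes) and for 2 in LKO (Clock and Per2, against 22.1%).

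**Figure D2:**
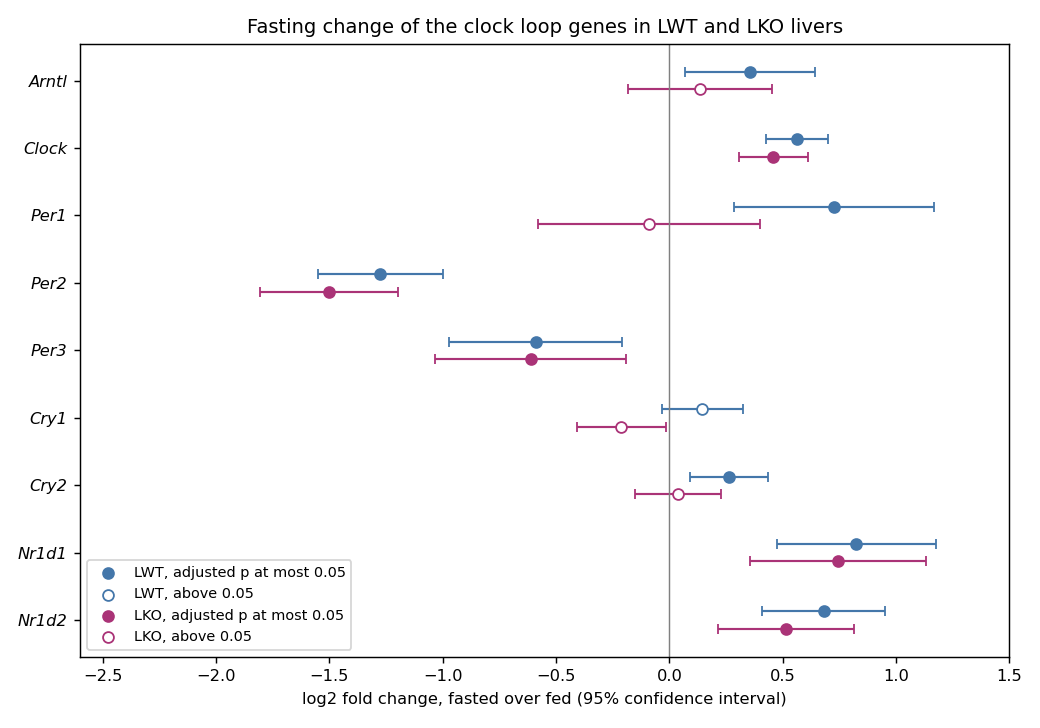
Log2 fold change on fasting (x axis, fasted over fed, with its 95% confidence interval) for the 9 members tested, in LWT and LKO livers, with filled points for an adjusted p of at most 0.05. Per2 lay at -1.27 and -1.5, and the intervals of the 2 genotypes overlapped for every member.

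Among the activators, Clock rose in both genotypes. CLOCK is the DNA-binding partner of BMAL1. Its log2 signal was 10.20 at the lowest, 10.49 at the median and 10.68 at the highest in LWT_Fed, and 10.96, 11.07 and 11.35 in LWT_Fasted. In LKO livers it ran from 10.42 through a median of 10.57 to 10.69 in the fed mice, and from 10.89 through 10.98 to 11.24 in the fasted mice. The lowest fasted mouse of either genotype stood above the highest fed mouse of either genotype. The fitted log2 fold change of Clock was 0.56 (SE 0.07, adjusted p = 5.78e-07 in limma) in LWT, a rise of 1.48-fold, and 0.46 (SE 0.07, adjusted p = 2.74e-05) in LKO, a rise of 1.37-fold. The LKO rise of Clock was 0.47 (adjusted p = 0.000162) without LKO_Fasted replicates 1 and 2. Clock is also read by 3 other probes, of which 2 rose in both genotypes, by 0.36 and 0.58 in LWT and by 0.46 and 0.60 in LKO. The remaining Clock probe was well above background on 1 to 5 of the 6 arrays of a group and gave 0.04 and 0.13, neither past the test. In RNA of whole liver, fewer cells of a type and less RNA per cell cannot be told apart.

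Arntl encodes BMAL1, the partner without which the loop stops. Its log2 signal lay between 8.80 and 9.73 with a median of 9.42 in LWT_Fed, and between 9.24 and 9.95 with a median of 9.60 in LWT_Fasted. In LKO_Fed it lay between 9.21 and 9.70 with a median of 9.49, and in LKO_Fasted between 9.35 and 10.11 with a median of 9.60. All 4 groups overlapped. The fitted rise of Arntl on fasting was 0.35 (SE 0.14, adjusted p = 0.0440 in limma) in LWT and 0.13 (SE 0.15, adjusted p = 0.517) in LKO. The LWT call was close to the threshold and was lost without array weights (0.24, adjusted p = 0.231), with no filter (0.32, adjusted p = 0.137), with a slide row term (0.35, adjusted p = 0.0648) and with the processed signal (0.37, adjusted p = 0.0581). It was also lost when any 1 of 8 arrays was left out (LWT_Fed replicates 4 and 5, LWT_Fasted replicates 3, 4 and 6, LKO_Fed replicates 2 and 5, LKO_Fasted replicate 2), with an adjusted p of 0.0109 to 0.237 over the 24 omissions, and without LKO_Fasted replicates 1 and 2 together (0.35, adjusted p = 0.0551). The other 2 Arntl probes gave 0.21 and 0.16 in LWT (adjusted p = 0.0675 and 0.324).

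Npas2, whose protein can stand in for CLOCK, had a single probe that was well above background on 0 of 24 arrays. Its mean signals were 5.55, 5.53, 5.44 and 5.45 in LWT_Fed, LWT_Fasted, LKO_Fed and LKO_Fasted, and no fold is given. The probe that read Arntl lies at chr7:120456978-120457037 of mm9, the build of the files. The probe of Nr1d1 has 60 bases that span 503 bases of genome at chr11:98630526-98631028, on the minus strand. Both sequences are shown because each of these results rests on 1 stretch of a transcript.
Arntl probe: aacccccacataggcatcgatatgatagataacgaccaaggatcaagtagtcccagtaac
Nr1d1 probe: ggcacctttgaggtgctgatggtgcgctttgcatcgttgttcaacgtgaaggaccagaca

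The Per genes encode repressors whose abundance times the loop, and they moved in different directions. Per2, which is known to follow feeding and glucocorticoid signals, had the largest change of the members in both genotypes. Its log2 signal ran from 11.51 through a median of 11.89 to 12.49 in LWT_Fed, and from 10.47 through 10.79 to 10.93 in LWT_Fasted. In LKO_Fed it ran from 11.58 through 11.88 to 12.27, and in LKO_Fasted from 10.20 through 10.38 to 10.87. No fasted mouse reached the level of any fed mouse. Per2 fell by 1.27 (SE 0.13, adjusted p = 1.19e-07 in limma) in LWT, which is 2.42-fold, and by 1.5 (SE 0.15, adjusted p = 3.64e-08) in LKO, which is 2.83-fold. Its LKO change was -1.52 (adjusted p = 5.51e-07) without LKO_Fasted replicates 1 and 2. A second Per2 probe fell by 0.20 in LWT and by 0.27 in LKO (adjusted p = 0.0131 and 0.00256). That probe was read close to background, being well above it on 5 of 6 LKO_Fasted arrays, so its smaller values are no measure of the size.

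Per3, the least essential of the Per genes for the rhythm, fell in both genotypes too. Its log2 signal lay between 8.42 and 9.0 (median 8.76) in LWT_Fed and between 7.96 and 8.54 (median 8.24) in LWT_Fasted. It lay between 8.23 and 9.01 (median 8.51) in LKO_Fed and between 7.14 and 8.52 (median 8.21) in LKO_Fasted. Fed and fasted mice overlapped in each genotype, and LKO_Fasted replicates 5 and 6, at 7.53 and 7.14, were lower than all other mice. The fall was 0.59 (SE 0.18, adjusted p = 0.0132 in limma) in LWT and 0.61 (SE 0.20, adjusted p = 0.0195) in LKO. In LKO the Per3 call was lost without LKO_Fasted replicate 5 (-0.43, adjusted p = 0.0894), LKO_Fasted replicate 6 (-0.40, adjusted p = 0.0939) or LKO_Fed replicate 1 (-0.54, adjusted p = 0.0561). It was lost as well when only the compared groups were fitted (-0.56, adjusted p = 0.128), and its size grew to -0.88 without LKO_Fasted replicates 1 and 2. In LWT it was lost without LWT_Fasted replicate 3 (-0.51, adjusted p = 0.0519), LWT_Fasted replicate 6 (-0.45, adjusted p = 0.0956) or LWT_Fed replicate 5 (-0.53, adjusted p = 0.0605). A second Per3 probe, well above background on all arrays, fell by 0.61 in LWT and by 0.82 in LKO (adjusted p = 0.000194 and 1.91e-05). The remaining Per3 probe was well above background on 5 of 6 LWT_Fed and 6 of 6 LKO_Fed arrays but on 3 of 6 arrays of each fasted group, and it entered the test only through the fed groups, so it is not counted here.

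Per1, an immediate target of glucocorticoid and cAMP signals besides the clock, rose in LWT. Its log2 signal in LWT_Fed ran from 11.68 through a median of 11.85 to 12.27, and in LWT_Fasted from 12.13 through 12.73 to 12.78. Of the 6 LWT_Fasted mice 5 were above every LWT_Fed mouse, and replicate 4 was the exception. In LKO livers the median was 12.21 in the fed mice (11.31 to 12.40) and 11.98 in the fasted mice (11.19 to 12.82), and the fasted range took in the whole fed range. The LKO_Fasted mice stood at 12.23, 11.19, 11.57, 12.82, 12.55 and 11.73 in the order of their replicate numbers. Per1 rose by 0.73 (SE 0.21, adjusted p = 0.00869 in limma), or 1.66-fold, in LWT. Its fitted change in LKO was -0.09 (SE 0.24, adjusted p = 0.791), with a 95% interval from -0.58 to 0.40, and it was 0.09 (adjusted p = 0.806) without LKO_Fasted replicates 1 and 2, so its sign was not settled. The other Per1 probe was well above background on no array.

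The proteins of the CRY genes are strong inhibitors of the CLOCK and BMAL1 pair. Cry2 ran from 11.73 through a median of 11.98 to 12.28 in LWT_Fed and from 12.13 through 12.34 to 12.48 in LWT_Fasted. In LKO it ran from 12.06 through 12.16 to 12.24 in the fed mice and from 12.01 through 12.14 to 12.46 in the fasted mice. Its groups overlapped in both genotypes. Cry2 rose by 0.26 (SE 0.08, adjusted p = 0.0135 in limma) in LWT, a call lost without LWT_Fed replicate 5 (0.23, adjusted p = 0.0668), and its fitted change in LKO was 0.04 (SE 0.09, adjusted p = 0.778), or -0.05 (adjusted p = 0.713) without LKO_Fasted replicates 1 and 2. The other 2 Cry2 probes gave 0.09 and 0.13 in LWT (adjusted p = 0.529 and 0.478), so the rise was seen with 1 probe of 3.

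Cry1 ran from 7.15 through a median of 7.34 to 7.66 in LWT_Fed, and from 7.37 through 7.39 to 7.70 in LWT_Fasted. In LKO_Fed it ran from 7.23 through 7.55 to 7.71, and in LKO_Fasted from 7.26 through 7.33 to 7.90. All 4 groups overlapped. The fitted change of Cry1 on fasting was 0.14 (SE 0.09, adjusted p = 0.188 in limma) in LWT and -0.21 (SE 0.09, adjusted p = 0.0768) in LKO. The LKO value passed with median centring, with the replicate block, and without LKO_Fasted replicate 4 (adjusted p = 0.0181) or LKO_Fed replicate 5 (adjusted p = 0.0150), and it was -0.22 (adjusted p = 0.123) without LKO_Fasted replicates 1 and 2. A second Cry1 probe gave 0.28 (adjusted p = 0.0191) in LWT and -0.01 (adjusted p = 0.944) in LKO.

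Both REV-ERB genes, the nuclear receptors that repress Arntl and Clock, rose on fasting in both genotypes. Nr1d1 ran from 5.81 through a median of 6.32 to 6.76 in LWT_Fed and from 6.84 through 7.03 to 7.55 in LWT_Fasted. In LKO it ran from 5.97 through 6.22 to 6.74 in the fed mice and from 6.58 through 7.02 to 7.50 in the fasted mice. The LWT groups did not overlap, and in LKO a single fasted mouse, replicate 6, lay within the fed range. Nr1d1 rose by 0.82 (SE 0.17, adjusted p = 0.000442 in limma), or 1.77-fold, in LWT and by 0.74 (SE 0.19, adjusted p = 0.00286), or 1.67-fold, in LKO. The LKO rise of Nr1d1 was 0.67 (adjusted p = 0.0166) without LKO_Fasted replicates 1 and 2. Its probe was well above background on 5 of 6 LWT_Fed arrays and on all others, so it is read close to background, and with the scanner's background-corrected signal the rise was 1.46 in LWT and 1.30 in LKO on the log2 scale.

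Nr1d2, the second REV-ERB gene, ran from 9.53 through a median of 9.68 to 10.02 in LWT_Fed, and from 10.25 through 10.50 to 10.67 in LWT_Fasted. In LKO_Fed it ran from 9.62 through 9.76 to 10.17, and in LKO_Fasted from 9.77 through 10.52 to 10.73. The LWT groups were apart, and in LKO the fasted replicates 5 and 6, at 10.14 and 9.77, lay within the fed range. Nr1d2 rose by 0.68 (SE 0.13, adjusted p = 0.000224 in limma) in LWT, or 1.60-fold, and by 0.52 (SE 0.14, adjusted p = 0.00634) in LKO, or 1.43-fold. Without LKO_Fasted replicates 1 and 2 the LKO rise was 0.37 (adjusted p = 0.0783), and the call was also lost when only the compared groups were fitted (0.51, adjusted p = 0.0541). The other 2 Nr1d2 probes rose by 0.64 and 0.61 in LWT and by 0.69 and 0.56 in LKO.

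No member differed between genotypes past the test. Among fed livers 0 of 9 passed in limma, against 16.4% of all genes, and 1 member had an unadjusted p under 0.05. Among fasted livers it was 0 of 9, against 20.6% of all genes, with 2 members under an unadjusted p of 0.05. LKO and LWT mice lay apart for 0 members in either state, against 8.64% (fed) and 8.70% (fasted) of all genes. The members' median difference, LKO over LWT, was 0.06 in fed and -0.12 in fasted livers, beside -0.01 and -0.00 over all genes.

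In the fed state the member nearest to the threshold was Cry1, which was 0.26 higher in LKO (SE 0.09, 95% interval 0.07 to 0.44, adjusted p = 0.0516 in limma). It passed under 5 of 13 other settings, with an adjusted p of 0.0220 to 0.277 over the 13, and without any 1 of LKO_Fasted replicate 4 (adjusted p = 0.0279), LKO_Fasted replicate 5 (0.0477), LKO_Fed replicate 5 (0.0130), LWT_Fasted replicate 3 (0.0480) or LWT_Fed replicate 3 (0.0335). The second Cry1 probe gave 0.03 (adjusted p = 0.894) for the same comparison. Clock had the narrowest interval in the fed state, from -0.08 to 0.20, and Per1 the widest, from -0.28 to 0.63.

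In the fasted state Per1 was the member nearest to the threshold, 0.64 lower in LKO (SE 0.23, 95% interval -1.12 to -0.16, adjusted p = 0.0538 in limma). This is 1.56-fold, and the mean of LKO_Fasted was below that of LWT_Fasted on each of the 3 slides, with differences from -0.72 to -0.43. Per1 passed under 7 of 13 other settings, with an adjusted p of 0.0221 to 0.218 over the 13. It also passed without LKO_Fasted replicate 4 (adjusted p = 0.0291), LKO_Fasted replicate 5 (0.0114), LKO_Fed replicate 1 (0.0282) or LWT_Fasted replicate 4 (0.0151), and without LKO_Fasted replicates 1 and 2 together the difference was -0.46 (adjusted p = 0.218). Per2 was 0.32 lower (SE 0.14, adjusted p = 0.127), with an interval from -0.62 to -0.02. The fitted differences of the 9 members ran from -0.64 to -0.05, so 0 of 9 were above 0, where 10512 of 21372 genes were. For Arntl the fit gave -0.05 while the plain mean of LKO_Fasted was 9.68 and that of LWT_Fasted 9.61, so its sign was not settled. Nor was that of Nr1d1, at 0.04 without LWT_Fasted replicate 4, or of Nr1d2, at 0.07 without LKO_Fasted replicate 6. Without LKO_Fasted replicates 1 and 2 the difference of Per3 was -0.49 in place of -0.23 (adjusted p = 0.116), that of Nr1d2 was -0.25 (adjusted p = 0.327) and that of Nr1d1 was -0.19 (adjusted p = 0.601).

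The interaction asks whether fasting changed a gene differently in the genotypes. It passed for 0 of 9 members in limma, against 8.0% of all genes, and 2 members had an unadjusted p under 0.05. For Per1 the change in LKO minus that in LWT was -0.82 (SE 0.32, 95% interval -1.48 to -0.16, adjusted p = 0.121), and without LKO_Fed replicate 1, at 11.31 the lowest of its group, it was -1.03 (adjusted p = 0.0378). For Cry1 it was -0.36 (SE 0.13, interval -0.62 to -0.09, adjusted p = 0.0908), and without LKO_Fasted replicate 4 or LKO_Fed replicate 5 it was -0.40 and -0.42 (adjusted p = 0.0291 and 0.0334). For Per2, which fell in both genotypes, it was -0.23 (SE 0.20, interval -0.64 to 0.19, adjusted p = 0.534). For Clock it was -0.10 (SE 0.10, interval -0.31 to 0.10, adjusted p = 0.568), the narrowest interval of the members. Without LKO_Fasted replicates 1 and 2 the Per1 interaction was -0.63 (adjusted p = 0.229). A missed threshold does not show that the genotypes responded alike.

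**Figure D3:**
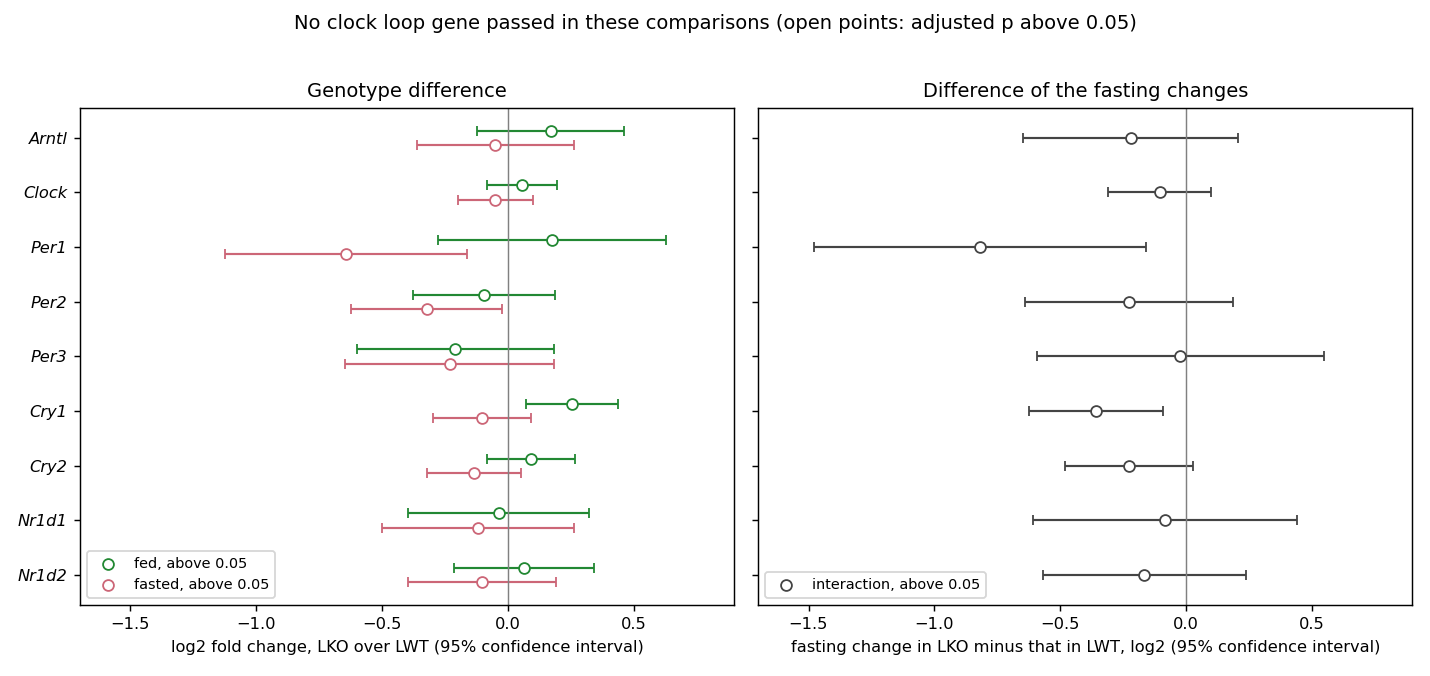
Left, log2 fold change of LKO over LWT in fed and in fasted livers; right, the interaction (fasting change of LKO less that of LWT); both on the x axis with 95% confidence intervals for the 9 members tested. All points are open because no adjusted p was at most 0.05, and Per1 at -0.64 in the fasted state and at -0.82 on the right lay farthest from 0.

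Members also varied from mouse to mouse within a group, and some did so together. After the group and slide means were removed, 36 pairs of members were compared over the 24 mice, and Pearson's r passed for 6 of them (permutation of mice within groups, adjusted over the 36), while Spearman's rho passed for 2. Clock and Nr1d1 went in opposite directions within groups, with r = -0.74 (permutation p = 0.000140, adjusted p = 0.00504) and rho = -0.73 (p = 0.000260, adjusted p = 0.00936). Leaving out the 2 mice farthest from the median of Clock gave r = -0.78, and leaving out LKO_Fasted gave r = -0.73 over 18 mice. Within the slides r was -0.71, -0.19 and -0.95, with 8 mice each. The Nr1d1 probe was read close to background, which limits every pair with Nr1d1. On fasting both Clock and Nr1d1 rose in both genotypes, so their group means did not go in opposite directions. The cause of this r was not tested.

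Per3 went with both REV-ERB genes. With Nr1d1 r was 0.65 (permutation p = 0.00108, adjusted p = 0.0194) and rho 0.63 (p = 0.00242, adjusted p = 0.0436), and r was 0.64 without the 2 farthest mice and 0.60, 0.27 and 0.86 within the slides. With Nr1d2 r was 0.69 (permutation p = 0.00266, adjusted p = 0.0293), but rho was 0.55 (p = 0.0138, adjusted p = 0.0990). Its r was 0.52 without the 2 farthest mice, 0.42 without LKO_Fasted, and 0.78, 0.11 and 0.87 within the slides. The remaining 3 pairs, Per3 with Cry2 (r = 0.59), Arntl with Cry1 (r = 0.61) and Cry2 with Nr1d2 (r = 0.57), had an adjusted p of 0.0293 to 0.0394 for r and of 0.0708 to 0.107 for rho. For Arntl with Cry1 r was 0.40 without the 2 farthest mice and 0.88, 0.32 and -0.13 within the slides, so its sign turned on 1 slide. For Per3 with Cry2 r was 0.49 without the 2 farthest mice, 0.38 without LKO_Fasted, and 0.46, 0.42 and 0.80 within the slides. For Cry2 with Nr1d2 r was 0.57 without the 2 farthest mice, 0.54 without LKO_Fasted, and 0.36, 0.53 and 0.76 within the slides. All pairs share the same arrays, and the permutation treats the mice of a group as exchangeable.

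**Figure D4:**
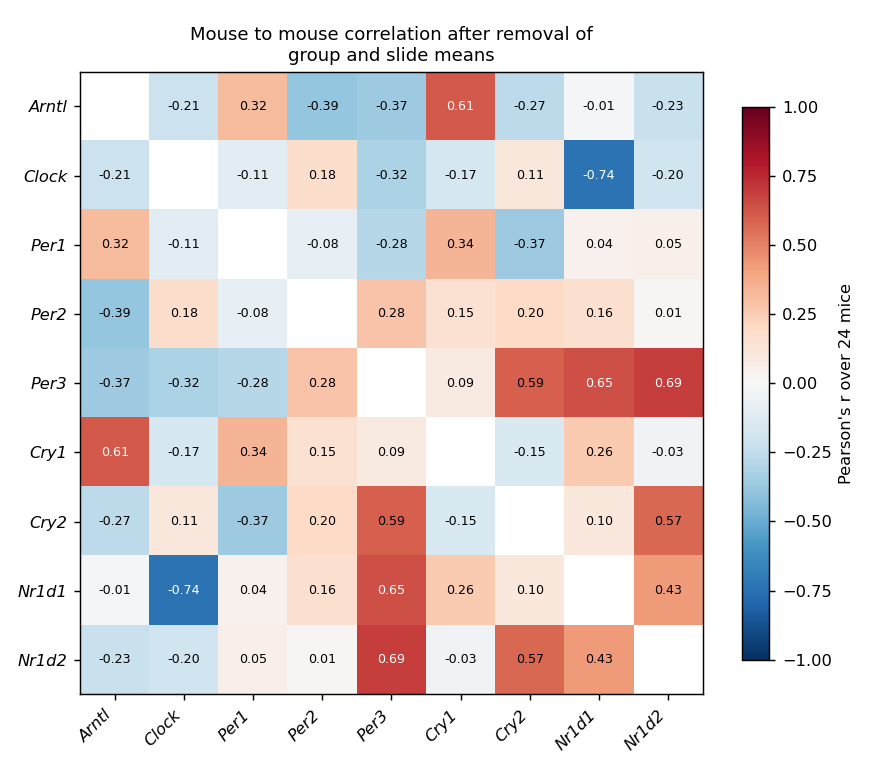
Pearson's r for each pair of the 9 members (both axes) over 24 mice after removal of group and slide means, with colour from -1 (blue) to 1 (red). Clock with Nr1d1 at -0.74 is the lowest value, and Per3 with Nr1d2 at 0.69 the highest.

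The genes around the loop were taken from a list of 24 partners that hold the PAR-bZIP outputs, the ROR and DEC factors, kinases, ubiquitin ligases and co-repressors, of which 22 passed the filter. Fasting raised 10 and lowered 4 of the 22 in LWT, and raised 6 and lowered 5 in LKO, against 41.6% and 41.5% of all genes. The LKO share is near that of all genes. With LKO_Fasted replicates 1 and 2 left out 4 rose and 3 fell, against 8594 of 21372 genes passing in either direction. The 5 lowered in LKO include Ciart, whose probe was read close to background in LKO_Fasted, as given below. Their median log2 fold change was 0.16 in LWT and -0.10 in LKO. Bhlhe40 (DEC1), a repressor that competes for E-boxes, fell by 1.27 in LWT (adjusted p = 5.61e-07 in limma) and by 1.03 in LKO (adjusted p = 2.71e-05). Nfil3, the repressor that competes with DBP for D-boxes, rose by 0.62 in LWT (adjusted p = 0.000148), and its value in LKO was 0.25 (adjusted p = 0.120), or 0.12 (adjusted p = 0.511) without LKO_Fasted replicates 1 and 2. Csnk1e, a casein kinase that marks PER proteins for breakdown, rose by 0.64 in LKO (adjusted p = 2.11e-07) and by 0.24 in LWT (adjusted p = 0.00386).

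The interaction passed for 4 of 22 partners, 1 above and 3 below 0, against 8.0% of all genes, and Ciart is 1 of the 3. Between genotypes, in the fasted state 8 of 22 passed, 3 higher and 5 lower in LKO, against 20.6% of all genes. In the fed state it was 2 of 22, both higher (Nfil3 by 0.42 and Timeless by 0.25), against 16.4% of all genes. The Nfil3 call was lost under median centring and without LKO_Fed replicate 1 or LWT_Fed replicate 1 or 4, with an adjusted p of up to 0.0637. Ciart (CHRONO), a repressor of the CLOCK and BMAL1 pair, ran from 6.38 through 6.6 to 6.95 in LWT_Fed, from 6.92 through 7.57 to 8.06 in LWT_Fasted, from 5.84 through 6.23 to 6.57 in LKO_Fed and from 5.39 through 5.88 to 6.03 in LKO_Fasted. All 6 LWT_Fasted mice stood above all LKO_Fasted mice. Ciart rose by 0.81 in LWT (SE 0.16, adjusted p = 0.000239 in limma). Its probe was well above background on all arrays of the other groups but on 3 of 6 LKO_Fasted arrays, so it entered comparisons with LKO_Fasted through the groups where it was high, and its call there, counted among the 8 above, is given no weight. The fitted genotype difference in fasted livers was -1.56, and it ran from -2.96 with the processed signal to -1.24 with normexp background.

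Usp2, a clock-driven deubiquitinase that acts on PER and BMAL1 proteins, had a log2 signal that ran from 10.90 through 11.13 to 11.35 in LWT_Fed, from 11.37 through 11.63 to 11.96 in LWT_Fasted, from 10.72 through 11.04 to 11.56 in LKO_Fed and from 9.54 through 10.55 to 10.61 in LKO_Fasted. All fasted LKO mice were below all other mice. Usp2 rose by 0.47 in LWT (adjusted p = 0.0246 in limma) and fell by 0.82 in LKO (adjusted p = 0.000842), and the interaction was -1.29 (SE 0.24, adjusted p = 0.00259). The rise in LWT was lost without LWT_Fasted replicate 5 or LWT_Fed replicate 5, with an adjusted p of up to 0.0745. A second Usp2 probe gave an interaction of -1.10 (adjusted p = 0.00478). Without LKO_Fasted replicates 1 and 2 the interaction was -1.30 for Usp2 (adjusted p = 0.00315) and 0.40 for Csnk1e (adjusted p = 0.0197).

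Of the PAR-bZIP factors, a family that binds D-boxes, Hlf was 0.71 lower in LKO_Fasted than in LWT_Fasted (SE 0.12, adjusted p = 0.000224 in limma), with an interaction of -0.59 (SE 0.16, adjusted p = 0.0279). The Hlf interaction was lost without any 1 of LKO_Fasted replicates 5 and 6 and LWT_Fasted replicates 4 and 5, with an adjusted p of up to 0.0546. Tef was 0.33 lower (SE 0.09, adjusted p = 0.0124), with an interaction of -0.30 (adjusted p = 0.149), and its call was lost when only the compared groups were fitted (adjusted p = 0.0566). Dbp was 0.48 lower, which did not pass (SE 0.19, adjusted p = 0.0918). It passed under 6 of 37 settings and omissions (no array weights, no slide term, slide as a random block, the replicate block, and without LWT_Fasted replicate 3 or 6), with an adjusted p of 0.0221 to 0.238 over the 37. Its values ran from 11.21 to 11.76 in LKO_Fasted against 11.47 to 12.34 in LWT_Fasted. Without LKO_Fasted replicates 1 and 2 the fasted difference was -0.74 for Hlf (adjusted p = 0.00102), -0.39 for Tef (adjusted p = 0.0130) and -0.47 for Dbp (adjusted p = 0.171), and the interaction of Hlf was -0.63 (adjusted p = 0.0297). In the fed state the differences of Hlf, Tef and Dbp were -0.11, -0.03 and -0.17, none of which passed. In the same fasted mice the members Per3, Nr1d1 and Nr1d2 had differences of -0.23, -0.12 and -0.10, none of which passed. Whether these are linked to the PAR-bZIP factors was not tested.

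**Figure D5:**
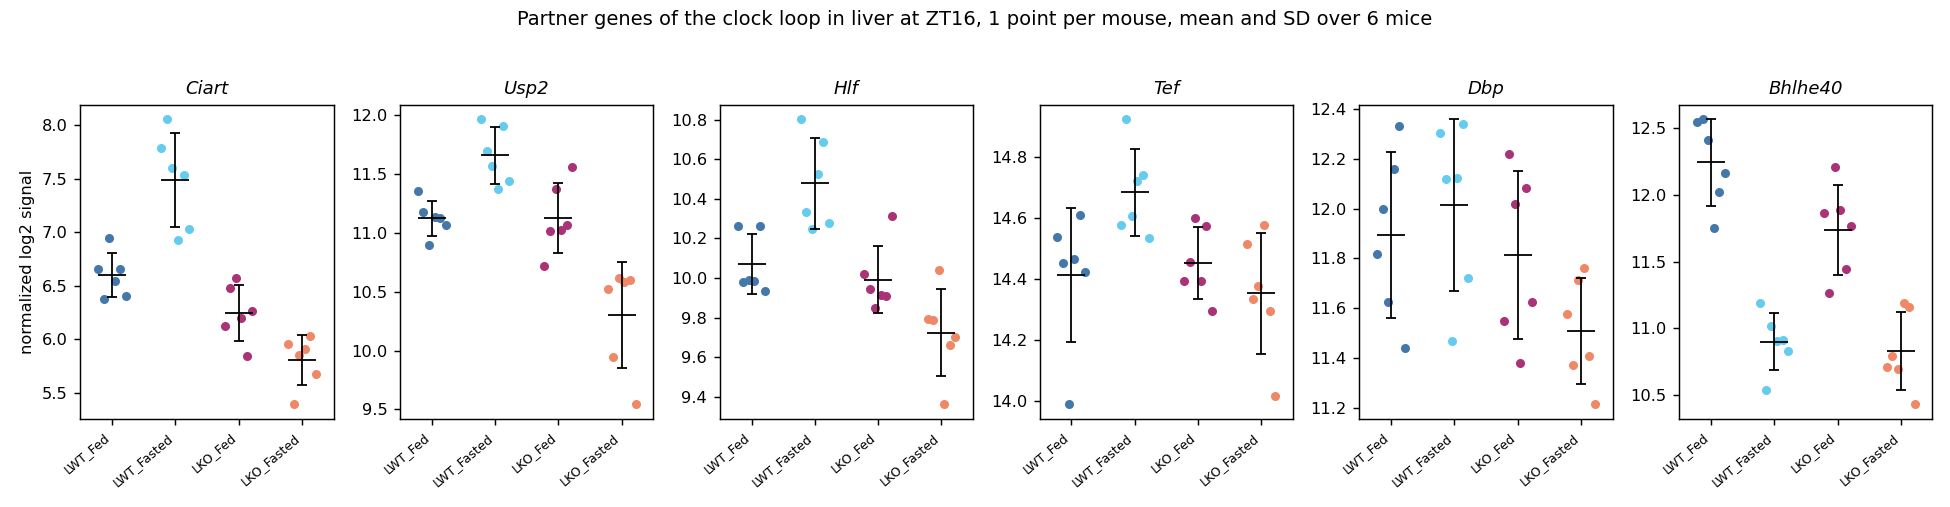
Normalized log2 signal of 6 partner genes (y axes, each on its own scale) in the 4 groups (x axes), 1 point per mouse with the mean and SD over 6 mice. All LKO_Fasted mice lie below all LWT_Fasted mice for Ciart, Usp2 and Hlf, the groups overlap for Tef and Dbp, and Bhlhe40 is lower in fasted than in fed mice of both genotypes.

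A list of 18 genes that carry feeding, glucocorticoid, cAMP and temperature signals to the clock all passed the filter. Fasting raised 9 and lowered 4 of them in LWT, and raised 7 and lowered 3 in LKO, against 41.6% and 41.5% of all genes. With LKO_Fasted replicates 1 and 2 left out 6 rose and 2 fell in LKO, against 8594 of 21372 genes passing in either direction. Fkbp5, a target of the glucocorticoid receptor, rose by 2.12 in LWT and by 1.51 in LKO. Ppargc1a, a co-activator of ROR factors, rose by 0.99 in LWT (adjusted p = 0.00160 in limma), with 0.56 in LKO (adjusted p = 0.0890). Ppara, a fasting-activated nuclear receptor that also acts on Arntl, rose by 0.89 in LWT and by 0.87 in LKO. The interaction passed for 2 of 18, against 8.0% of all genes. With LKO_Fasted replicates 1 and 2 left out, 2465 of 21372 genes passed the interaction, against 1709 with all arrays. Of the inputs 3 of 18 then passed, all below 0, with Fkbp5 (-0.65, adjusted p = 0.0240) and Gsk3b (-0.35, adjusted p = 0.0499) gained and Hsp90aa1 lost. Gsk3b falls outside the rule for named genes and is named because of this value. Tsc22d3 (GILZ), a second glucocorticoid target, fell by 0.62 in LWT and by 2.00 in LKO, with an interaction of -1.38 (SE 0.27, adjusted p = 0.00348). That interaction was -1.39 (adjusted p = 0.00489) without LKO_Fasted replicates 1 and 2. The Tsc22d3 fall in LWT was lost without LWT_Fasted replicate 6 (adjusted p = 0.0555). The chaperone gene Hsp90aa1 had an interaction of 0.64 (SE 0.18, adjusted p = 0.0355), and it fell by 0.72 in LWT, while its change in LKO was -0.08 (adjusted p = 0.686), or -0.24 (adjusted p = 0.194) without LKO_Fasted replicates 1 and 2. Its interaction was then 0.48 (adjusted p = 0.0960). Sik1, a kinase induced by cAMP that restrains resetting of the clock, was higher in LKO by 0.90 in fed and by 1.0 in fasted livers (adjusted p = 0.00933 and 0.00531), the latter lost when only the compared groups were fitted (adjusted p = 0.0524) and at 1.14 (adjusted p = 0.00780) without LKO_Fasted replicates 1 and 2. In the fed state 3 of 18 passed between genotypes (Sik1, Cirbp at 0.35 and Hspa8 at -0.28, the last 2 passing under 24 and 13 of 37 other settings and omissions), against 16.4% of all genes, and in the fasted state 7 of 18, among them Tsc22d3 at -1.41 and Hsp90aa1 at 0.65, against 20.6%.

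Markers of other liver cells were read beside these results, and no list was tested as a set. Of all genes 41.6% passed on fasting in LWT and 41.5% in LKO. Between genotypes the shares were 16.4% in fed and 20.6% in fasted livers. The counts below are to be set against these shares. On fasting, 0 of 6 Kupffer cell markers passed in either genotype, of 6 endothelial markers 0 passed in LWT and 1 in LKO, and of 6 stellate cell markers 1 rose and 1 fell in each. Of 6 cholangiocyte markers 1 rose and 2 fell in each genotype, and of 5 hepatocyte markers 1 rose and 1 fell in each. In LKO 3 of 6 cholangiocyte markers were lower in fed livers and 2 of 6 in fasted livers. The summed log2 signal of that list was 11.07 to 11.77 in LWT_Fed, 10.80 to 11.14 in LWT_Fasted, 9.75 to 10.90 in LKO_Fed and 9.14 to 10.27 in LKO_Fasted. Of the exocrine pancreas, adipocyte, erythroid and lymphocyte markers tested (3, 5, 4 and 4), 2, 1, 1 and 1 fell on fasting in LWT and 1 of each list in LKO. Between genotypes, 1 of 5 adipocyte markers was higher and 1 lower in LKO in both states, as were 1 and 1 of 3 pancreas markers. Of 5 hepatocyte markers 1 was higher and 1 lower in fed livers and 2 were lower in fasted livers, 1 of 4 erythroid markers was lower in both states, and 1 of 6 endothelial markers was lower in fed livers. Of 6 pancreas markers 3 were well above background on no array. The part of other cell types in the values of the clock genes was not tested.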

How the data were processed

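The authors labelled liver RNA with Cy3 and hybridised it to SurePrint G3 mouse arrays (Agilent, 1 colour, 60-base probes), which were scanned and read with Agilent Feature Extraction 10.10.1.1, as the methods and the submitters' processing notes say. Per the file headers, the values used are the median signal intensity of each spot and, for alternatives, the mean signal, the local background and the processed signal, none scaled between arrays. The log2 values in the deposited series matrix are those that the authors filtered, corrected for washing bath and quantile normalized. The rule of that filter and the bath of each array are not given in the sources used here. Flags for signal well above background and for spot outliers, given as other columns per the file headers, were used as filters.

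Probes outside controls numbered 56605. Spots marked as outliers were left out, which left 90 probe values missing, no spot was saturated, and spots of 1 probe were averaged. Genes were named by the files' own names. Probes well above background on at least 5 of 6 arrays of at least 1 group were kept, 32197 probes of 21372 genes. Their log2 median signal was quantile normalized between arrays. The number of arrays limits the precision.

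All 24 arrays were fitted with limma 3.58.1 in R 4.3.3 (group means, slide as a term, arrayWeights, eBayes), which was tested on simulated data. The 3 slides held 2 arrays of every group each. Contrasts were fasted against fed in LWT and in LKO, LKO against LWT in fed and in fasted livers, and the interaction. Tests were two-sided, with Benjamini-Hochberg adjustment over every probe kept. Intervals are 95% intervals of the fit. Correlations used residuals from group and slide means with 100000 permutations within groups. Alternatives covered signal, background, scaling, filter, weights, slide, slide row, replicate block, probe, a fold minimum and omission of arrays.

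Named genes are the 10 members, Pik3ca, the 3 largest passing changes of the partner list and of the input list in each contrast with the other PAR-bZIP factors, and the 2 genes most like each member. Members, lists and tests were chosen with earlier results of these data known. Promoter windows are those of RefSeq (GRCm38.p6), while probe positions refer to mm9.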

Additional observations from a re-analysis of the deposited data

Results flagged for a closer look

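Single mice stood apart from their group of 6 in 4 of the 36 groups of values (9 members by 4 groups), by a gap test in which chance alone marks about 1 group in 20. Per1 in LWT_Fasted had its lowest mouse, replicate 4, at 12.13 while the other 5 lay between 12.58 and 12.78. Cry1 had 3 such mice, the highest of LWT_Fasted (replicate 3) at 7.70, the lowest of LKO_Fed (replicate 5) at 7.23 and the highest of LKO_Fasted (replicate 4) at 7.90. All values are normalized log2 signals.

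The fasting change differed between genotypes, by the interaction term of the limma fit, for 4 of 22 partner and 2 of 18 input genes, against 8.0% of all genes. The change in LKO minus that in LWT was -1.27 for Ciart, -1.29 for Usp2, -0.59 for Hlf, 0.40 for Csnk1e, -1.38 for Tsc22d3 and 0.64 for Hsp90aa1, on the log2 scale. The adjusted p was 0.00202, 0.00259, 0.0279, 0.0143, 0.00348 and 0.0355 in the same order. Ciart was well above background on 3 of 6 LKO_Fasted arrays, so its call is given no weight. For Csnk1e the call was lost without LWT_Fed replicate 5 (adjusted p = 0.0505), and for Hsp90aa1 it was lost in 12 of 36 settings and omissions, with an adjusted p of up to 0.123 (no filter, no array weights, without LKO_Fasted replicates 1 and 2 together, and without any 1 of LKO_Fasted replicates 1, 2 and 3, LKO_Fed replicates 3, 5 and 6, LWT_Fasted replicate 6 and LWT_Fed replicates 1 and 5).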

How the results depend on the processing

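Of 9 members tested, 8 passed on fasting in LWT and 5 in LKO. Leaving out each array in turn gave 5 to 8 in LWT and 4 to 6 in LKO, and 5 in LWT was reached without LWT_Fed replicate 5, when Arntl, Cry2 and Per3 missed the threshold. A fold above 1.5 left 5 in LWT and 3 in LKO, and fitting only the compared groups left 3 in LKO, without Per3 and Nr1d2. Between genotypes 0 passed, and 1 member, Cry1, passed in the fed state with the processed signal, median centring, the series matrix values or the filter on all arrays. In the fasted state 1 member, Per1, passed with normexp background, median centring, the series matrix values, the filter on all arrays, no slide term or slide as a random block. For the interaction 1 member, Cry1, passed with the processed signal or median centring. Leaving out single arrays gave 0 to 1 in each of these 3 comparisons, and the cause of these differences was not tested. No member's called change reversed its sign under any setting. With the replicate block, where the numbers of the mice were paired across groups, 8 passed in LWT, 6 in LKO, and 1 each in the fed, fasted and interaction comparisons. The numbers do not pair the mice, since 36 same-numbered pairs had a mean correlation of -0.02 and a lowest one of -0.18 in their deviations. Nr1d1 is not tested where all 24 arrays must be above background, and Npas2 never gave a fold. Signal over background limits Nr1d1, which was not above it on 1 LWT_Fed array.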

Other observations

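The genes whose values went most closely with a member from mouse to mouse, after group and slide means were removed, were found by Pearson's r over 24 arrays among 18411 genes, as a description with no test. Nr1d2 went with Tef (r = 0.80), itself a PAR-bZIP output of the clock, and with Etaa1 (0.78). Per3 went with Bbc3 (0.80) and 3300002A11Rik (0.78), and Per1 with AA986860 (0.85) and Gm42035 (0.84). Arntl went with Nfyc (0.80) and Atp6v1b2 (0.79), and Clock with Plscr4 (0.79) and Lrrc57 (0.77). Per2 went with Dhx33 (0.80) and Eif2b3 (0.78), Cry1 with Uxs1 (0.79) and Parva (0.78), Cry2 with Zfp760 (0.85) and Eif4a2 (0.81), and Nr1d1, among 18412 genes, with Ppp6r1 (0.82) and Gpx2 (0.75).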
